A study of Gallus gallus with 8 samples.

Results

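Slit, Robo, netrin and UNC5 genes, with the netrin-family receptor neogenin and its ligand RGMA, were compared between 2 dissected regions of the chick head at Hamburger and Hamilton stage 8, the time of neural fold elevation. The members were all probe sets that the platform annotation assigns to SLIT1, SLIT2, SLIT3, ROBO1, ROBO2, NTN1, UNC5B, UNC5C, NEO1 or RGMA, which gave 26 probe sets of 10 genes, among 38439 probe sets without control names and 13009 genes with a probe set of their own. Cranial neural fold (NF) and cranial neural plate (NP), the latter described as ventral in the series text, were each hybridised to 4 Affymetrix chicken genome arrays. Both tissues came from embryos of the same stage, and the labels name no treatment. The series text gives 80 to 114 embryos for n = 4, so each array appears to carry pooled tissue, and p-values measure the spread between these pools.

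Slits are secreted proteins that bind Robo receptors and repel growing axons and migrating cells, and in the chick trunk they are known to steer neural crest cells that carry Robo receptors. Netrin-1 is a secreted cue of the floor plate and ventral midline that attracts axons through DCC or neogenin and repels them through UNC5 receptors. RGMA is a membrane-anchored ligand of neogenin first known as a repellent of chick retinal axons. At this stage the cranial neural tube is still closing, so the genes are measured before most of the axon guidance they are known for.

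Of the 26 probe sets, 20 passed a filter on dim signals (a mean over the 8 arrays at or above the 40th percentile of all probe sets) and were tested with limma, neural fold against neural plate. At least 1 probe set of each of the 10 genes was tested. The 6 left out were 3 of ROBO1, 2 of SLIT3 and 1 of SLIT1, and for these the values on the arrays of both tissues overlapped. Of the 20 tested, 2 were higher in neural fold with an adjusted p below 0.05 and 0 were lower, where 0.694% of 23063 tested probe sets were called higher and 0.585% lower. Both belong to ROBO2. A further measure, the absence of any overlap between the tissues, held for 5 of the 20, all higher in neural fold (3 of ROBO2 and both of UNC5B), where 6.71% of all tested probe sets had none, 3.12% being higher and 3.59% lower. Probe sets of 1 gene are not independent of each other, so these counts amount to 2 genes. The median log2 change was 0.21 over the 20 member probe sets and -0.001 over all tested. By the brightest probe set of each of the 10 genes it was -0.01, with 5 genes above 0 and 5 below.

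Array and tissue checks were as follows. Markers of neural fold and crest were all higher in neural fold (10 of 10, among them PAX7, TFAP2B and SNAI2), and 5 of 6 markers of the ventral neural plate and floor plate were lower there, FOXA1 being the exception. The arrays numbered 1 in both tissues had median intensities of 195.7 and 182.1 against 105.3 to 121.6 on the rest, and the results that change most with them are given below with and without them. The fit was repeated with the array number as a block, and its values are given as blocked. Same-numbered arrays of the 2 tissues deviated together most for number 1 (correlation 0.62). For numbers 2 to 4 (0.19, 0.29 and 0.21) they did so about as much as some arrays of different numbers (up to 0.28). A background limit was set on each array from control probe sets for bacterial and artificial sequences, and it lay between 32.3 and 134.7 in deposited intensity.

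ROBO2, the only member gene with single probe sets past the threshold, was higher in neural fold by all 5 of its probe sets. Averaged over the 5, the log2 change was 1.21 ± 0.16 (SE, limma adjusted p = 0.0059 over 10279 genes, 0.013 blocked), a setting chosen after the data were seen, under which 2.22% of genes were called and 1.13% called higher (3.44% and 1.56% blocked). Probe sets of a gene are numbered here from the brightest. ROBO2 probe set 1 had deposited intensities of 714.5, 1460.2, 1319.0 and 1424.7 on neural fold arrays 1 to 4 and of 471.7, 608.4, 561.3 and 544.8 on neural plate arrays 1 to 4. Neural fold array 1 was the lowest of its tissue but still lay above every neural plate array. After normalization the levels were 10.20 ± 0.48 and 9.09 ± 0.23 on the log2 scale (SD, n = 4), a change of 1.11 ± 0.26 or 2.15-fold (95% interval 0.52 to 1.70). Its adjusted p was 0.12, and it passed the threshold with the number as a block (0.039) and without both arrays numbered 1 (0.0059). It passed in 5 of 19 alternatives, a count that includes the mean of the 5 probe sets. The limma adjusted p of probe set 1 reached 0.66 with median centring. In bulk tissue, more cells that express a gene and more RNA per cell cannot be told apart.

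The calls came from dimmer ROBO2 probe sets with less spread. Probe set 4 read 375.9, 293.4, 287.8 and 293.8 in neural fold and 189.2, 151.5, 77.7 and 72.4 in neural plate. All neural fold values exceeded all neural plate values, and the neural fold arrays differed little from each other (log2 8.37 ± 0.04, SD, n = 4, against 7.05 ± 0.35). This probe set rose by 1.32 ± 0.19, or 2.50-fold (limma adjusted p = 0.015, 0.035 blocked). Probe set 2, whose suffix marks probes that can match more than a single transcript, read 598.2, 683.6, 628.8 and 699.7 in neural fold and 357.1, 364.4, 291.3 and 311.3 in neural plate. It rose by 0.96 ± 0.16 (limma adjusted p = 0.024, 0.028 blocked), again with no overlap between the tissues. Both lost the call with median centring (0.37 for probe set 2 and 0.06 for probe set 4) and when any of neural fold arrays 2, 3 or 4 or neural plate arrays 3 or 4 was left out, with adjusted p of 0.056 to 0.11. Probe set 4 also lost it with the values as deposited (0.091), and probe set 2 with no filter (0.091).

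The other ROBO2 probe sets pointed the same way without passing the threshold. Probe set 3 read 319.5, 705.7, 664.4 and 665.1 in neural fold and 183.9, 173.2, 295.6 and 182.9 in neural plate. The raw values did not overlap, but after normalization neural fold array 1 (8.02) fell below neural plate array 3 (8.33). The change was 1.38 ± 0.39 (limma adjusted p = 0.22, and 0.018 without both arrays numbered 1). It passed in 3 of 18 alternatives, with an adjusted p of up to 0.49 in the rest. Probe set 5, the dimmest, ranged from 97.1 to 343.1 in neural fold and from 13.1 to 160.2 in neural plate, and 1 neural plate array was under the background limit. Its change was 1.28 ± 0.52 (adjusted p = 0.53). Between arrays of the same number, ROBO2 was higher in neural fold in 4 of 4 pairs for each of the 5 probe sets, by 0.37 to 2.76 on the log2 scale. Where the tissues do not overlap, as for most of these probe sets, any pairing of the arrays gives that count.

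**Figure D1:**
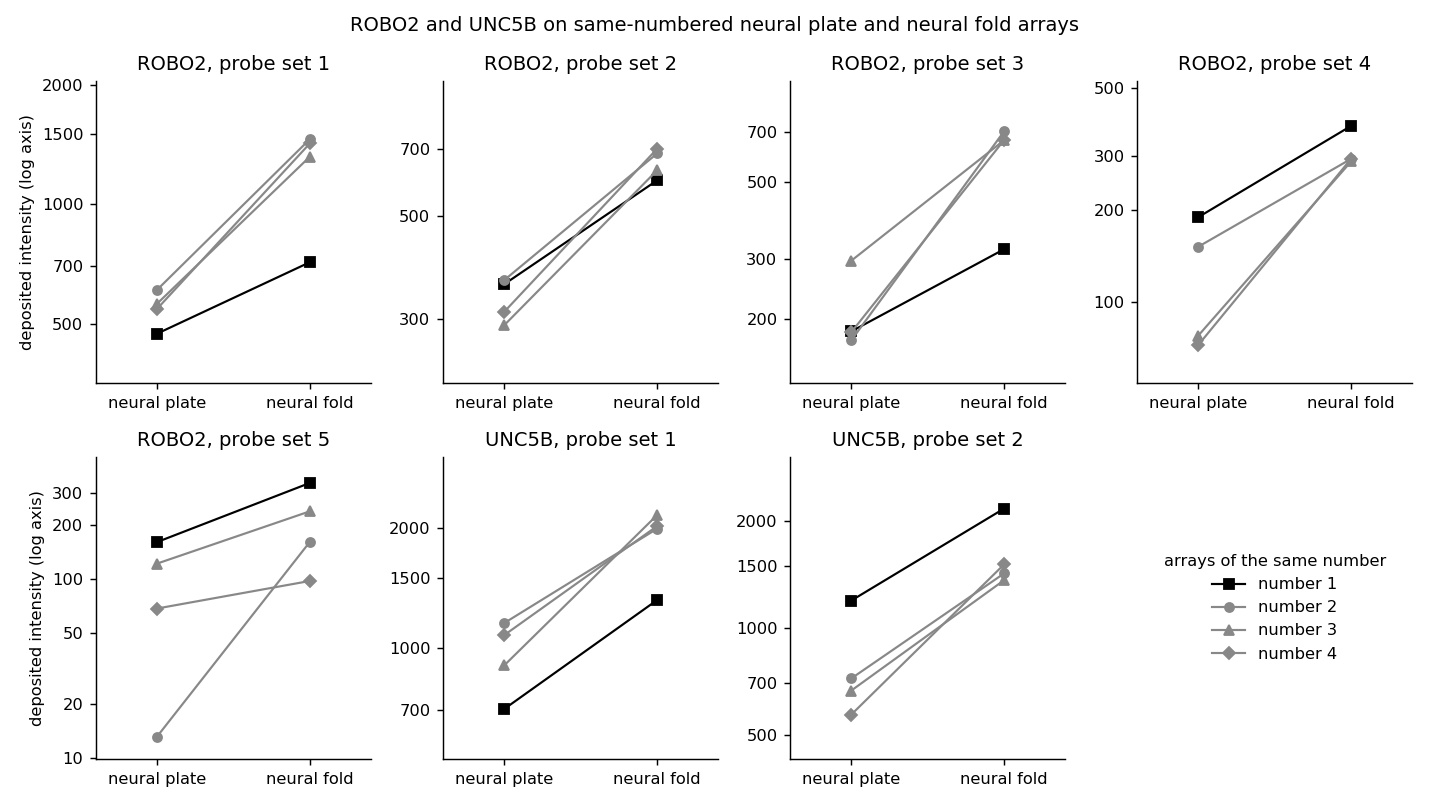
Deposited intensity (log axis) of the 5 tested ROBO2 and 2 tested UNC5B probe sets on neural plate and neural fold arrays, with a line joining arrays of the same number and the arrays numbered 1 in black. All 28 lines rise from neural plate to neural fold, and the arrays numbered 1 sit low for ROBO2 probe set 1 and high for UNC5B probe set 2.

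UNC5B, a netrin receptor of the repulsive kind that also binds other ligands, was also higher in neural fold, by about 1 unit on the log2 scale. Its brighter probe set read 1320.8, 1993.0, 2156.2 and 2023.5 in neural fold and 704.5, 1156.4, 905.8 and 1078.6 in neural plate, with no overlap and array 1 lowest in each tissue. The second read 2174.0, 1426.4, 1364.9 and 1512.9 against 1195.0, 720.3, 665.7 and 569.4, again with no overlap but with array 1 highest in each tissue. The arrays numbered 1 thus moved these probe sets in opposite directions, while the difference within each pair of same-numbered arrays stayed between 0.72 and 1.37 on the log2 scale in all 4 pairs of both. The changes were 0.96 ± 0.21 (limma adjusted p = 0.097) and 1.07 ± 0.29 (0.20), and neither passed the threshold. With the number as a block both did (0.039 and 0.031), as they did without both arrays numbered 1 (0.024 and 0.015). Most alternatives gave no call. The brighter probe set passed in 6 of 19 (limma adjusted p up to 0.79), a count that includes the mean of both probe sets. The second passed in 3 of 18 (up to 0.48). Neither passed with any single array left out. The mean of both probe sets gave 1.01 ± 0.13 (95% interval 0.73 to 1.30, limma adjusted p = 0.0042 over genes, 0.011 blocked). That mean was a setting chosen after the data were seen. With each array left out in turn, it kept a limma adjusted p of 0.0067 to 0.023. For the mean of the ROBO2 probe sets the range was 0.0037 to 0.030. In these fits 135 to 249 of 10279 genes were called.

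**Figure D2:**
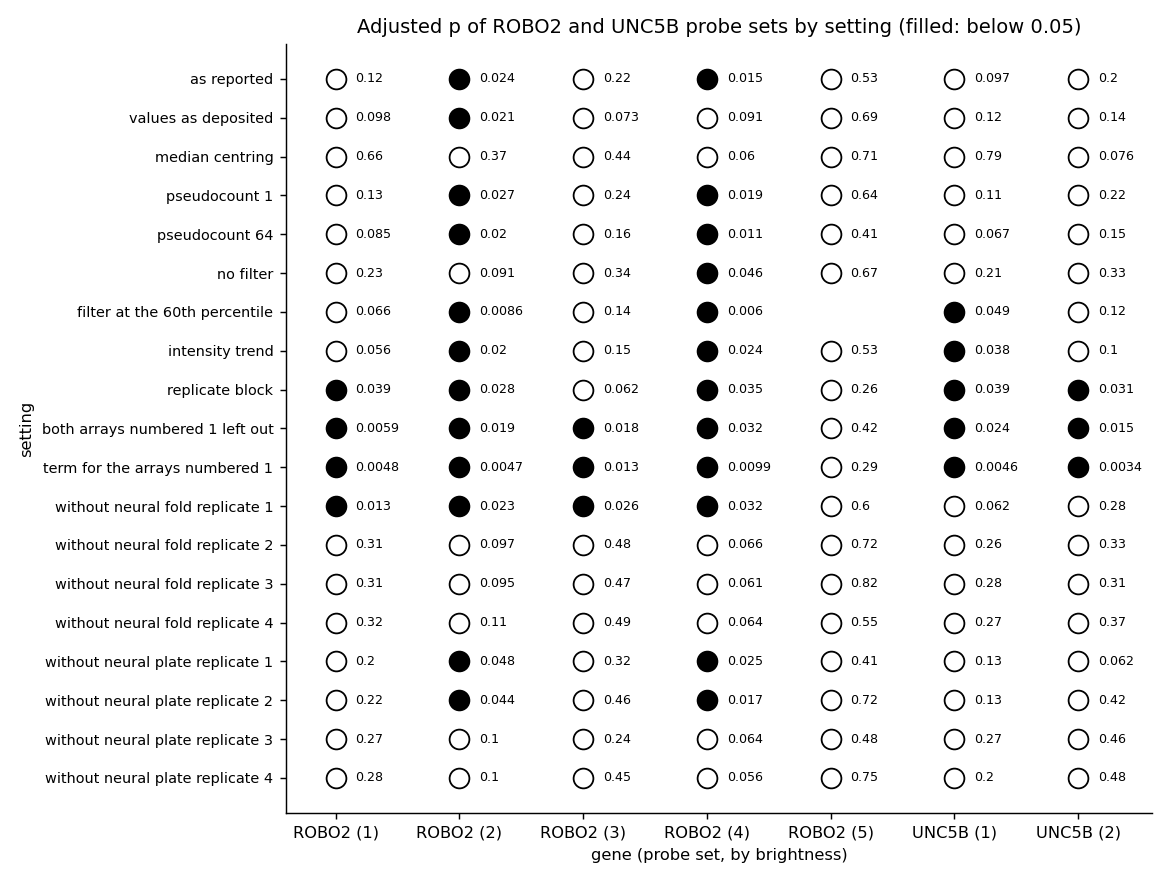
Adjusted p of each ROBO2 and UNC5B probe set (columns, numbered by brightness) under the reported fit and each alternative setting (rows), with filled circles below 0.05 and the value beside each circle. ROBO2 probe sets 2 and 4 are filled in most rows, and both UNC5B probe sets are filled with the replicate block and when the arrays numbered 1 are left out or given a term.

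UNC5C, a second repulsive netrin receptor and a relative of UNC5B, had lower values in neural fold. Its brighter probe set read 287.2, 402.4, 343.5 and 428.9 in neural fold and 286.4, 684.6, 637.0 and 616.0 in neural plate. The overlap came from neural plate array 1 alone, since the other 3 neural plate arrays lay above all neural fold arrays. The second probe set read 263.2, 291.8, 344.5 and 212.9 against 317.4, 515.3, 419.1 and 468.4, with overlap between neural fold array 3 and neural plate array 1. The changes of -0.49 ± 0.39 and -0.58 ± 0.28 did not pass the threshold (limma adjusted p = 0.96 and 0.71, and 0.24 and 0.20 blocked). Without both arrays numbered 1 they were -0.63 ± 0.13 and -0.62 ± 0.19 (adjusted p = 0.079 and 0.21). After normalization both probe sets were lower in neural fold in 4 of 4 same-numbered pairs, though the deposited values of probe set 1 in pair 1 were nearly equal, with differences from -0.97 to -0.10. The 95% intervals of the changes were 0.47 to 1.45 and 0.40 to 1.73 for UNC5B, and -1.39 to 0.40 and -1.23 to 0.07 for UNC5C. The difference between these genes was not itself tested.

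ROBO1, which lies beside ROBO2 on chromosome 1 with 0 protein-coding genes between them in the RefSeq table of assembly GRCg7b, showed no common direction. Its brightest probe set read 131.8, 128.7, 122.8 and 78.2 in neural fold and 236.0, 137.3, 143.2 and 70.8 in neural plate, which overlap. The change was -0.26 ± 0.27 (95% interval -0.88 to 0.36, limma adjusted p = 1.00). The other tested probe sets changed by -0.33 ± 0.69 and 0.66 ± 0.41, and all 3 lay near the background limit, above it on 2 to 4 arrays of a tissue. The 3 untested ones were above it on 0 to 3 arrays of a tissue. Averaged over the 3 tested, the change was 0.02 ± 0.22 (95% interval -0.49 to 0.53, adjusted p = 1.00), where the interval of the ROBO2 mean began at 0.85. The difference between ROBO1 and ROBO2 was not itself tested.

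**Figure D3:**
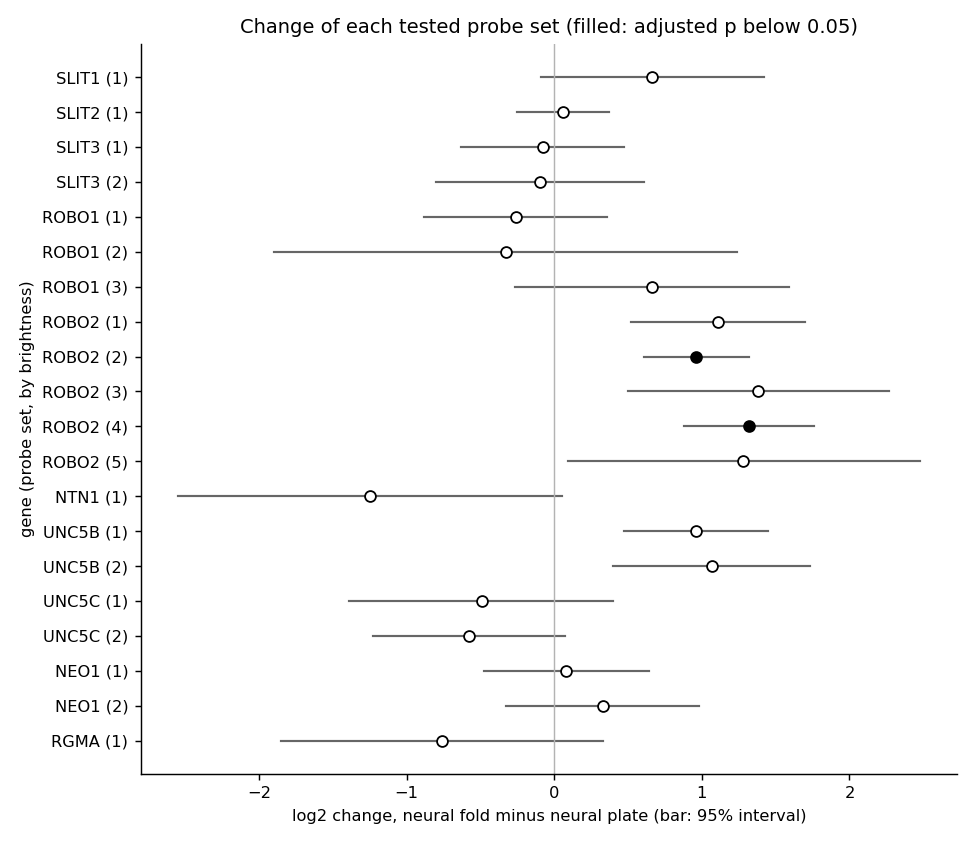
Log2 change, neural fold minus neural plate, with its 95% interval for each of the 20 tested member probe sets, numbered within a gene by brightness. The 5 ROBO2 and 2 UNC5B intervals lie wholly above 0, and every other interval includes 0.

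The Slit ligands of the Robo receptors did not differ beyond their spread. SLIT2 read 337.8, 240.7, 235.8 and 215.7 in neural fold and 284.9, 229.2, 237.1 and 254.4 in neural plate. Its normalized levels were 8.09 ± 0.08 and 8.03 ± 0.10 (SD, n = 4), so the tissues overlapped and the change of 0.06 ± 0.14 had a 95% interval of -0.25 to 0.37 (limma adjusted p = 1.00). This was the most tightly bounded of the 20 changes. SLIT3 had a change of -0.08 ± 0.24 by its brightest probe set, with 382.5 to 578.3 in neural fold and 441.6 to 564.4 in neural plate, and -0.10 ± 0.31 by the second. Of the 2 untested SLIT3 probe sets, 1 lay at or below the background limit on all 8 arrays. The other lay just under the filter, at percentile 39.7, and exceeded the limit on 4 of 4 neural fold and 2 of 4 neural plate arrays. Its means were 6.84 and 6.00, higher in neural fold unlike the tested probe sets, with overlap between the tissues.

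SLIT1 had a wider range. Its tested probe set read 854.7, 397.4, 282.4 and 322.3 in neural fold and 307.5, 353.1, 196 and 278.1 in neural plate, with neural fold array 1 far above the rest and the other arrays overlapping. The change of 0.66 ± 0.33 (95% interval -0.09 to 1.42, limma adjusted p = 0.72) fell to 0.31 without both arrays numbered 1. In same-numbered pairs the neural fold was higher by 1.73 in pair 1 and by 0.20 to 0.48 in the other 3.

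NTN1, the midline attractant, had the lowest change of the 20, with values that depended on the pair. Its only probe set read 353.4, 15.7, 106.9 and 61.2 in neural fold and 345.0, 238.4, 176.2 and 216.0 in neural plate. Neural plate arrays 2 to 4 exceeded neural fold arrays 2 to 4, while the arrays numbered 1 were alike. In neural fold 2 of 4 arrays exceeded the background limit, and in neural plate 4 of 4. The normalized levels were 6.74 ± 1.29 and 7.99 ± 0.22 (SD, n = 4), a change of -1.25 ± 0.57 (95% interval -2.55 to 0.05, limma adjusted p = 0.64, 0.35 blocked). Without both arrays numbered 1 it was -1.66 ± 0.50 (limma adjusted p = 0.20), and in pairs it ran from -0.03 in pair 1 to -2.93 in pair 2. NTN1 is known from floor plate and notochord, and several markers of both, though not all, differed between the tissues. Summed over 6 ventral and floor plate markers, deposited intensity was 1115.1 to 1825.6 in neural fold and 10032.6 to 12297 in neural plate, and over 6 notochord and prechordal markers 2065.9 to 4467.7 and 12690.2 to 18300.5. Of the notochord and prechordal markers, 0 were higher in neural fold and 3 lower (TBXT, CHRD and GSC). Their part in the NTN1 values was not tested.

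**Figure D4:**
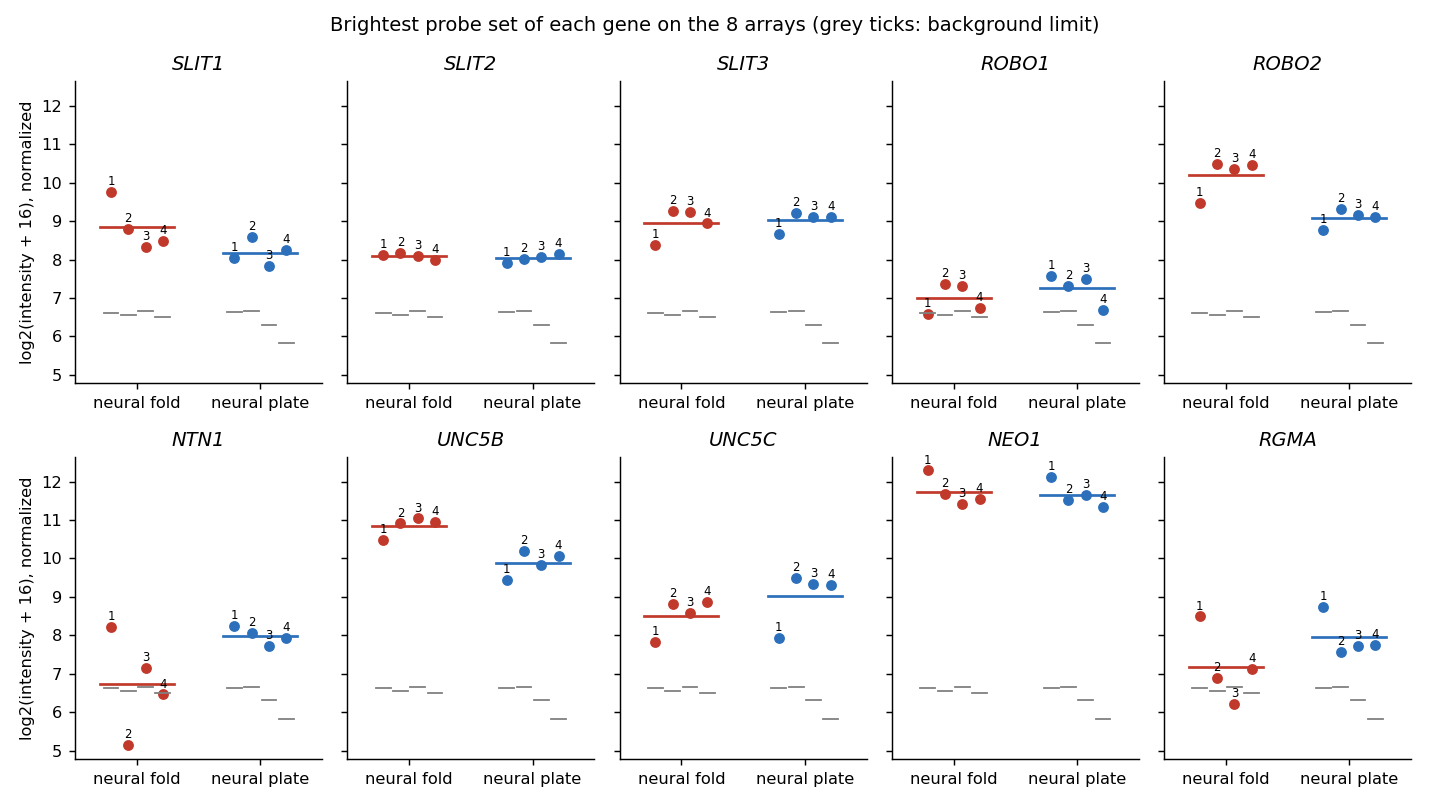
Normalized log2(intensity + 16) of the brightest probe set of each of the 10 genes on the 4 neural fold (red) and 4 neural plate (blue) arrays, numbered, with tissue means as bars and each array's background limit as a grey tick. ROBO2 and UNC5B show no overlap between the tissues, NTN1, RGMA and ROBO1 fall below the limit on some neural fold arrays, and all genes but ROBO2 and UNC5B overlap.

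RGMA and its receptor neogenin gave no call. RGMA read 410.4, 88.2, 46.7 and 107.2 in neural fold and 462.0, 163.0, 177.5 and 183.8 in neural plate. The arrays numbered 1 were the brightest of both tissues, and among arrays 2 to 4 every neural plate value exceeded every neural fold value. The change was -0.76 ± 0.48 (95% interval -1.85 to 0.33, limma adjusted p = 0.87, 0.24 blocked, and -0.93 ± 0.24 with 0.15 without both arrays numbered 1), and the neural fold was lower in 4 of 4 pairs, with differences from -1.51 to -0.25. NEO1 read 4450.3, 3488.6, 2860.0 and 3130.7 in neural fold and 3930.5, 3020.8, 3300.9 and 2656.4 in neural plate by its brighter probe set, with overlap between the tissues. Its changes were 0.08 ± 0.24 (95% interval -0.48 to 0.64) and 0.33 ± 0.29 (-0.33 to 0.98), with limma adjusted p of 1.00 and 0.99.

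Thus the ligand genes tested (SLIT1, SLIT2, SLIT3, NTN1 and RGMA) gave 0 calls in either direction, where 1.28% of all tested probe sets were called. At that share 0 calls is usual for so few probe sets, so it does not set ligands apart from receptors. Of the receptor genes only ROBO2 was called by single probe sets in the main fit, where UNC5B had limma adjusted p of 0.097 and 0.20. UNC5B was added by the block and by the mean of its probe sets, the latter a setting chosen after the data were seen. With the block 5 member probe sets were called higher (3 of ROBO2 and 2 of UNC5B) and 0 lower, where 0.854% of all tested were called higher and 0.872% lower. At an unadjusted p below 0.05, 7 member probe sets were higher (5 of ROBO2 and 2 of UNC5B) and 0 lower by limma, where 3.86% of all tested probe sets were higher at that level and 4.39% lower.

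Further ligands, receptors and cytoplasmic partners of the same pathways were taken from a list of 43 symbols, of which 34 had a probe set and 30 were tested by their brightest one. DCC, the main attractive netrin receptor, is among the symbols not analysed here. Of the 30, 1 rose, 1 fell and the remaining 28 gave no call. The median change was -0.05, against -0.001 over all tested probe sets. Over the 72 tested probe sets of the partners, 1 was called higher and 1 lower, where 1.28% of all tested probe sets were called. DRAXIN, a secreted netrin and DCC binding protein that also antagonises Wnt signalling, was the one that rose. It read 11249.6, 12308.5, 14311 and 17770.4 in neural fold and 3290.9, 2913.6, 2948.8 and 3415.3 in neural plate, and every neural fold array was more than 3 times as bright as every neural plate array. Its change was 2.09 ± 0.17, or 4.25-fold (limma adjusted p = 0.00078, and 3.2e-05 to 0.017 over the alternatives).

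SRGAP1, a GTPase-activating protein that binds Robo receptors in mammals and acts downstream of Slit, fell. It read 284.8, 370.5, 323 and 181.4 in neural fold and 628.1, 748.9, 754.3 and 749.3 in neural plate by its brightest probe set. The tissues did not overlap, and the change was -1.31 ± 0.25 (limma adjusted p = 0.049, 0.048 blocked). The call sat at the threshold: it was lost without both arrays numbered 1 (0.074), with median centring (0.22), a pseudocount of 1 (0.061) or no filter (0.11), and without any of 7 of the 8 arrays (0.067 to 0.16), the exception being neural fold array 2. Its other tested probe sets changed by -1.22 ± 0.28 and -1.10 ± 0.60, and the mean of the 3 gave -1.21 ± 0.31 (adjusted p = 0.12, 0.0076 blocked). Its relatives SRGAP2 (0.72 ± 0.49) and SRGAP3 (-0.02 ± 0.41) were not past the threshold.

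**Figure D5:**
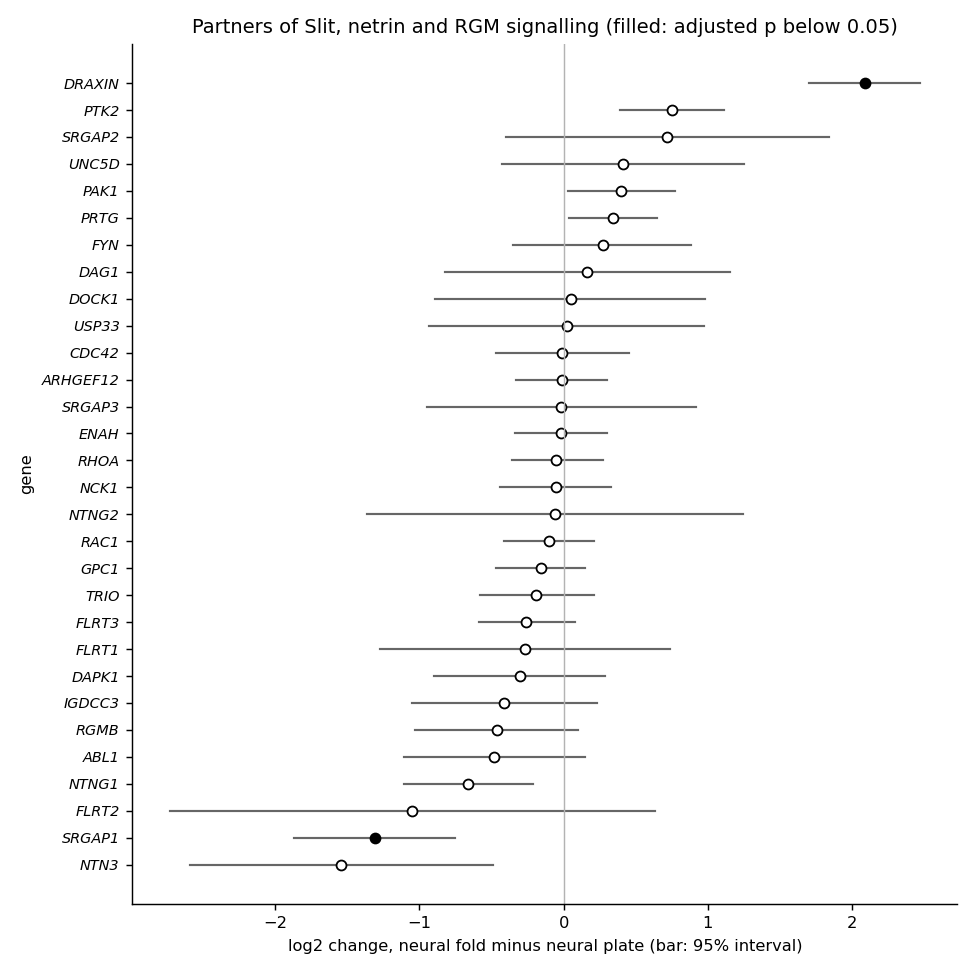
Log2 change, neural fold minus neural plate, with its 95% interval for the 30 tested pathway partners by their brightest probe set, in order of the change. DRAXIN at 2.09 and SRGAP1 at -1.31 are filled as past the threshold, and NTN3 lies lowest at -1.54 with a wide interval.

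NTN3 and PTK2 were singled out after their values were seen. NTN3, a further netrin, read 28.7, 96.6, 71.2 and 114 in neural fold and 297.2, 174.6, 303.6 and 240.1 in neural plate. The tissues did not overlap, as for NTN1 apart from the arrays numbered 1. The change of -1.54 ± 0.46 did not pass the threshold (limma adjusted p = 0.27, 0.20 blocked). In neural fold 3 of 4 arrays exceeded the background limit, and in neural plate 4 of 4. In pairs the change ran from -2.98 in pair 1 to -0.65 in pair 2, and over the alternatives from -1.84 to -1.05. PTK2, the focal adhesion kinase that netrin receptors bind, read 4036.3 to 4705 in neural fold and 2512.3 to 2612 in neural plate, and changed by 0.75 ± 0.16 (adjusted p = 0.076, 0.053 blocked). The mean of its 3 probe sets changed by 0.67 ± 0.16 (adjusted p = 0.094, 0.032 blocked). Among intracellular partners shared by many receptors, RAC1 (-0.10 ± 0.14), CDC42 (-0.01 ± 0.20), RHOA (-0.05 ± 0.14) and ENAH (-0.02 ± 0.14) had changes near 0.

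Markers of other tissues that the dissected pieces could hold were measured too. Of 5 measured markers of non-neural ectoderm, 2 were higher in neural fold (CDH1 and DLX5, the latter also a border gene), with a summed intensity of 17397.4 to 18618.9 in neural fold and 9391.6 to 9876 in neural plate. The other 3 were not past the threshold, among them EPCAM (0.47 ± 0.14, limma adjusted p = 0.27). EPCAM made up most of both sums, with 12576.3 to 13874.1 in neural fold and 8473.4 to 9319.9 in neural plate. Both called ectoderm markers were higher in the same tissue as ROBO2 and UNC5B, and their part in those changes was not tested. UNC5B is also known from endothelium, whose markers KDR and CDH5 lay above the background limit on 1 to 2 arrays of a tissue. KDR changed by -0.27 ± 0.75 (limma adjusted p = 1.00), CDH5 was too dim to be tested, and the tissues overlapped for both. The part of endothelium in the UNC5B values was not tested. Summed over 5 blood and endothelial markers, intensity was 267.2 to 821.2 in neural fold and 1162.4 to 2132.5 in neural plate. By their brightest probe sets 0 of 3 tested were past the threshold. Over all probe sets of these markers, 1 of 4 tested was called lower in neural fold and 0 higher. Most of the summed intensity in neural plate came from LMO2, a blood and endothelial gene (564.2 to 1675.1, against 124.4 to 247.8 in neural fold). Its tissues did not overlap, and its change of -2.39 ± 0.46 lay at the threshold (limma adjusted p = 0.05). Head mesoderm markers gave 904.7 to 1162.8 in neural fold and 1480 to 2421.6 in neural plate, with 0 of 5 past the threshold. All 5 changes were below 0, and for 3 (TWIST1, FOXC1 and FOXC2) the tissues did not overlap. Over all 7 tested probe sets of these markers 42.9% had no overlap, where 6.71% of all tested probe sets had none. Of 4 tested endoderm markers, 1 was lower in neural fold by its brightest probe set (SOX17, -2.70 ± 0.29, limma adjusted p = 0.0037). Over all probe sets of the endoderm markers, 2 of 5 tested were called lower and 0 higher. Their summed intensity by the brightest probe sets was 1704.6 to 2624.1 in neural fold and 3030.3 to 4044.6 in neural plate. Of 6 pan-neural markers, 2 were called lower (SOX2 and CDH2), with sums of 12527.2 to 15959.5 in neural fold and 22082.9 to 22925 in neural plate. By the brightest probe sets all 6 changes were below 0, and for 5 the tissues did not overlap. Over the 12 tested probe sets of these markers, 9 changes were below 0 and 3 above. Of these 12, 41.7% had no overlap, against 6.71% of all tested probe sets. The part of these tissues in the NTN1, UNC5C and RGMA values was not tested.

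The genes with profiles closest to the members of largest rise and fall were found by the root mean square distance between log2 values centred on each gene's own mean, over the 8 arrays and 10278 other genes. For ROBO2 by its brightest probe set they were ID4 (distance 0.12), KCNK5 (0.16), DUSP6 (0.17), UNC5B (0.19) and EMB (0.20), where the median over all genes was 0.71. UNC5B was therefore the fourth closest, by its brighter probe set only. Its other probe set was not compared. There array 1 was highest in each tissue, where for ROBO2 by its brightest probe set array 1 was lowest in each. The 5 genes had changes of 0.89 to 1.16, none of them past the threshold by these probe sets. Changes alike in size follow from a distance that includes the difference between the tissues. For NTN1 the closest were EFCAB4B (0.36), EXOC3L4 (0.38), LOC771917 (0.40), BDKRB2 (0.42) and RHBDD1 (0.42), against a median of 1.07. These distances are larger than those for ROBO2, and all 5 had an adjusted p of 0.82 or more.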

How the data were processed

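Each deposited value is an intensity on a linear scale for a probe set. The submitters' processing notes name GCOS. Its version, background treatment and detection calls are not given in the sources used here. The trimmed mean (2% at each end) was 500.1 on every array in the file. The table's 8 columns were matched to the samples by accession, and 0 columns were unused. After removal of 96 control probe sets, values were taken as log2(value + 16), which understates changes of dim genes, and quantile normalized, since array medians differed by 0.80. The linear model of limma 3.58.1 (R 4.3.3, moderated by eBayes) was fitted to 23063 probe sets, with Benjamini-Hochberg adjustment. The scripts were tested on simulated data. The background limit was the 95th percentile of 59 control probe sets per array, carried onto the normalized scale. Array number limits the precision.

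Symbols came from the platform annotation, checked by Entrez ID against RefSeq, with 0 changes. No genome build is named in the deposited files, and no coordinates are given. The placing of ROBO1 beside ROBO2 was read from the RefSeq table, whose assembly is named above. The named genes were all members, the partners past the threshold, markers, and 5 closest profiles for each of 2 members; NTN3, PTK2 and others among the partners were named after their values were seen. The members and lists were chosen with earlier results of these data known. Same-numbered arrays of the 2 tissues had deviations correlated at 0.62, 0.19, 0.29 and 0.21 (numbers 1 to 4), all above 0.1, so the numbers were taken to pair them. Only number 1 stood apart: between different numbers among arrays 2 to 4 the correlation was 0.08 to 0.28. The labels do not say what a number marks. The smallest correlation between arrays of 1 tissue was 0.878.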

Additional observations from a re-analysis of the deposited data

Results flagged for a closer look

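Among 40 sets of 4 arrays (20 member probe sets in 2 tissues), 4 had an array whose gap to its nearest neighbour took up more of the range than Dixon's 95% limit allows, and chance gives about 1 in 20 sets. All 4 were arrays numbered 1. For ROBO2, neural fold array 1 was low by the brightest probe set (9.48, with the others at 10.36 to 10.50, on the normalized log2 scale) and by probe set 3 (8.02, with the others at 9.43 to 9.53). For UNC5C, neural plate array 1 was low by its brighter probe set (7.92, with the others at 9.30 to 9.49). For RGMA, neural plate array 1 was high (8.74, with the others at 7.56 to 7.75). Leaving out both arrays numbered 1 moved the change of ROBO2 from 1.11 to 1.24 and from 1.38 to 1.56.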

How the results depend on the processing

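Of 364 member values over 19 alternatives (18 planned, and probe sets averaged per gene, chosen after seeing the data), 326 kept direction and side of the threshold, 14 lost the call, 17 gained it and 7 reversed, all 7 small changes that were not called. The average per gene was counted under the brightest probe set of that gene. With 1 array left out, SLIT3 ran from -0.20 to 0.12 (probe set 1) and from -0.33 to 0.12 (probe set 2), ROBO1 probe set 2 from -0.82 to 0.28 and NEO1 probe set 1 from -0.10 to 0.24. Leaving out neural fold array 1 reversed each of these, and leaving out neural plate array 4 also SLIT3 probe set 2 (0.06) and NEO1 probe set 1 (-0.02). The reversal counted for ROBO1 probe set 1 was the mean of the 3 tested ROBO1 probe sets (0.02). That probe set by itself stayed between -0.46 and -0.02. Member probe sets called higher numbered 2, but 0 with median centring, 1 with the values as deposited or no filter, 5 with the replicate block, and 6 when both arrays numbered 1 were left out or given a term, with 0 called lower in each. Leaving out 1 array gave 0 to 4. Among partners, 2 were called higher with the values as deposited, the 60th percentile filter, an intensity trend, or the arrays numbered 1 left out or given a term, and 1 when any array was left out. The number lower was 0 with median centring, a pseudocount of 1, no filter or both arrays numbered 1 left out, 2 with the term, and 0 to 1 with an array left out. Over all probe sets, 160 were higher and 135 lower, against 90 and 61 with median centring, 116 and 89 with no filter, 257 and 283 without both arrays numbered 1, and 386 and 477 with the term. Leaving out 1 array gave 86 to 162 higher and 49 to 141 lower. Of all calls 54.2% were higher, and 59.6% with median centring. The replicate block changed no other member's call than those of ROBO2 and UNC5B given above. The causes were not tested. Signal over background limits ROBO1, NTN1 and RGMA.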
